A study of Mus musculus with 48 samples.

Results

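Junctions between the Jκ1 break and 3 antigen receptor loci on other chromosomes were collected from 48 HTGTS-JoinT-seq libraries of mouse vAbl progenitor B cells. In this assay, DNA is copied from a primer beside the bait end and the prey sequence attached to that end is read. Members were all listed junctions in 3 mm9 windows, chr12:114000001-118000000 for Igh, chr14:53000001-55000000 for Tcra/Tcrd and chr13:19000001-20000000 for Tcrg. They numbered 2569 of the 8250887 junctions of the series and 2569 of the 41091 outside chromosome 6. Amplified copies share the prey position and strand, the end of the bait and the gap or overlap between them, and merging them left 261 distinct junctions of 6446 outside chromosome 6. Of these, 79 lay in Igh, 180 in Tcra/Tcrd and 2 in Tcrg.

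WT and Ku70-/- vAbl cells were compared. Both are transformed by the Abelson kinase and, in the study's methods, each is 1 clone, so genotype cannot be told apart from other differences between the lines. Ku70-/- cells lack a subunit of Ku, the complex that binds DNA ends for classical nonhomologous end joining, and join ends by alternative end joining. For each genotype and each bait, 3 libraries came from cycling cells and 9 from cells arrested in G0-G1 with STI-571 (3 μM, 96 h). The arrested cells received DMSO, L67 (5 μM) or L82-G17 (25 μM), with 3 libraries each. L67 inhibits DNA ligases I and III, and L82-G17 inhibits DNA ligase I. The Jκ1CE bait reads from the coding end of Jκ1 and the Jκ1SE bait from its signal end, and the labels do not say which libraries share a DNA sample.

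RAG1/2 cuts between a gene segment and its recombination signal sequence (RSS), which holds a heptamer, a spacer and a nonamer. The cut leaves a hairpin-sealed coding end on the segment and a blunt signal end on the RSS. Coding ends are normally joined to coding ends and signal ends to signal ends, and a joint of a coding end to a signal end is called a hybrid joint. Igh is assembled in progenitor B cells from V, D and J segments. Tcra/Tcrd and Tcrg encode T cell receptor chains and are assembled in developing T cells. In Tcra/Tcrd, Trav segments supply the variable part of the α chain, and those with dv in their name also serve the δ chain.

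The signal sequences at the Jκ1 break and at the leading Tcra/Tcrd sites are shown because they define which prey end is coding and which is signal. Each run holds 20 coding bases and then the RSS, read outward from the segment on mm9, with heptamer and nonamer in capitals.
Jκ1, chr6:70672517-70672575, minus strand: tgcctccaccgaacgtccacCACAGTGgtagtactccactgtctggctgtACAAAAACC
Trav15-1-dv6-1, chr14:54179903-54179961, plus strand: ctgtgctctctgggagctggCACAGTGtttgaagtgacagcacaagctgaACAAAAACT
Trav13-1, chr14:54165181-54165239, plus strand: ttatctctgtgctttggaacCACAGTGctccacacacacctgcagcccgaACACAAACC
Trav14-1, chr14:54174214-54174272, plus strand: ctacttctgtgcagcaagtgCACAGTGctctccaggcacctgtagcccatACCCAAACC
Trav13-2, chr14:54255055-54255113, plus strand: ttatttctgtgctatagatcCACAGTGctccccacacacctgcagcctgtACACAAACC
Tcra-V2.6, chr14:53698701-53698759, plus strand: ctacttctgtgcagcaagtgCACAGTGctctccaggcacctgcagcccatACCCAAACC
Trav15-2-dv6-2, chr14:54269650-54269708, plus strand: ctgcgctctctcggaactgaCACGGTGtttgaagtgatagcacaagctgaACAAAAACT
All carry a spacer of 23 bases, as Jκ1 itself does. Only Trav15-2-dv6-2 departs from the consensus heptamer CACAGTG among these.

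The leading Igh sites are shown in the same way, because all but Ighv2-2 carry other heptamers and Ighd1-1 has the other spacer length.
Ighj2, chr12:114667707-114667765, plus strand: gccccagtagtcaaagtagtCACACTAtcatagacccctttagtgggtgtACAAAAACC
Ighj4, chr12:114666759-114666816, plus strand: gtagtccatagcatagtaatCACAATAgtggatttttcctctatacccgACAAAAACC
Ighd1-1, 5′ side, chr12:114720384-114720431, plus strand: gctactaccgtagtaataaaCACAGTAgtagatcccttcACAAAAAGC
Ighv5-4, chr12:114835618-114835676, minus strand: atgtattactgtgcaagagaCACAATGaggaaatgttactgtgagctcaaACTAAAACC
Ighv2-2, chr12:114826439-114826497, minus strand: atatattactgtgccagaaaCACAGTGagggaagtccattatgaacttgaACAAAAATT
The spacer of Ighd1-1 is 12 bases long, that of Ighj4 22 bases and those of the other 3 segments 23 bases. The annotated Ighj2 interval, 114667725 to 114667778, lies almost wholly on the signal side of the border found here (last coding base 114667726). The annotation and this border thus disagree.

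The lists hold 8294 to 385847 junctions per library, made by the authors from 500000 read pairs each, and counts below are per 500000 read pairs. In arrested cells the range is 186395 to 385847 from Jκ1CE and 130487 to 352630 from Jκ1SE for WT, and 130546 to 172341 and 116039 to 198488 for Ku70-/-. Cycling libraries hold 8294 to 32108. One library stood apart with each bait. Ku70-/- STI-571 + DMSO replicate 1 held 927 distinct Vκ junctions from Jκ1CE and 965 from Jκ1SE, against 5942 to 17725 in the other arrested Ku70-/- libraries. It held 0 distinct junctions in the 3 loci with either bait, and the main comparisons that include it are also given without it, a choice made after the data were seen. A count of 0 allows up to 3 junctions in a library, and this limit and all intervals cover counting error only.

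Jκ1 breaks joined Igh and Tcra/Tcrd in arrested cells of both genotypes, and WT signal ends joined Tcra/Tcrd most often. In WT Jκ1SE libraries with DMSO, Tcra/Tcrd held 20, 5 and 9 distinct junctions. With L67 it held 19, 14 and 16, and with L82-G17 it held 9, 7 and 13. In Ku70-/- Jκ1SE libraries the values were 0, 2 and 2 with DMSO, 7, 3 and 4 with L67, and 1, 1 and 1 with L82-G17. The genotypes did not overlap within any treatment. From Jκ1CE, WT libraries held 1, 0 and 1 with DMSO, 1, 3 and 4 with L67, and 2, 0 and 3 with L82-G17. Ku70-/- Jκ1CE libraries held 0, 3 and 2 with DMSO, 3, 4 and 1 with L67, and 2, 13 and 3 with L82-G17. Apart from the library with 13, the coding end counts of both genotypes covered the same range.

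Means of distinct Tcra/Tcrd junctions from Jκ1SE were 12.4 ± 5.29 (SD, n = 9) in WT and 2.33 ± 2.12 (SD, n = 9) in Ku70-/-. The difference, Ku70-/- minus WT, was -10.1 (exact two-sided permutation test within treatment, p = 0.00025, the smallest it can give; Benjamini-Hochberg adjusted p = 0.003 over 48 comparisons). Without the low-complexity library it was -9.89 (exact permutation p = 0.0005). With copies kept, the difference was -111 junctions (exact permutation p = 0.00075). Within treatments the difference kept its sign in 3 of 3. From Jκ1CE the means were 1.67 ± 1.41 in WT and 3.44 ± 3.78 in Ku70-/- (exact permutation p = 0.223, adjusted p = 0.51), and without the low-complexity library the Ku70-/- mean was 3.88 ± 3.80 and the difference 2.06 (exact permutation p = 0.0885). The Ku70-/- L82-G17 replicate 2 library held 13 of the 31 Ku70-/- junctions, and without it the mean was 2.25 ± 1.28 and the difference 0.611 (exact permutation p = 0.386). Between the baits, WT cells differed by 10.8 distinct junctions, signal end minus coding end (exact permutation p = 0.00025, adjusted p = 0.003). In Ku70-/- cells the same difference was -1.11 (exact permutation p = 0.641, adjusted p = 0.75), and -1.17 without the low-complexity library (exact permutation p = 0.585). Leaving out each library in turn, a choice made after the data were seen, gave -1.78 to 0.0556 there, the ends coming without the Jκ1CE libraries of L82-G17 replicate 1 and replicate 2.

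Igh counts were low with both baits in both genotypes. WT libraries held 3, 2 and 5 distinct Igh junctions from Jκ1CE with DMSO, 4, 3 and 2 with L67, and 2, 0 and 4 with L82-G17. Ku70-/- libraries held 0, 3 and 0, then 2, 1 and 3, then 3, 2 and 6. From Jκ1SE the WT values were 2, 2 and 2, then 0, 1 and 2, then 1, 3 and 2. The Ku70-/- values were 0, 3 and 0, then 2, 1 and 4, then 3, 2 and 4. The ranges overlapped with both baits. The difference between genotypes was -0.556 from Jκ1CE (exact permutation p = 0.602) and 0.444 from Jκ1SE (exact permutation p = 0.575), both with an adjusted p of 0.722. Without the low-complexity library these were -0.389 (exact permutation p = 0.691) and 0.611 (exact permutation p = 0.312). Leaving out 1 library gave -0.944 to -0.222 and 0.111 to 0.667, none past the threshold.

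**Figure D1:**
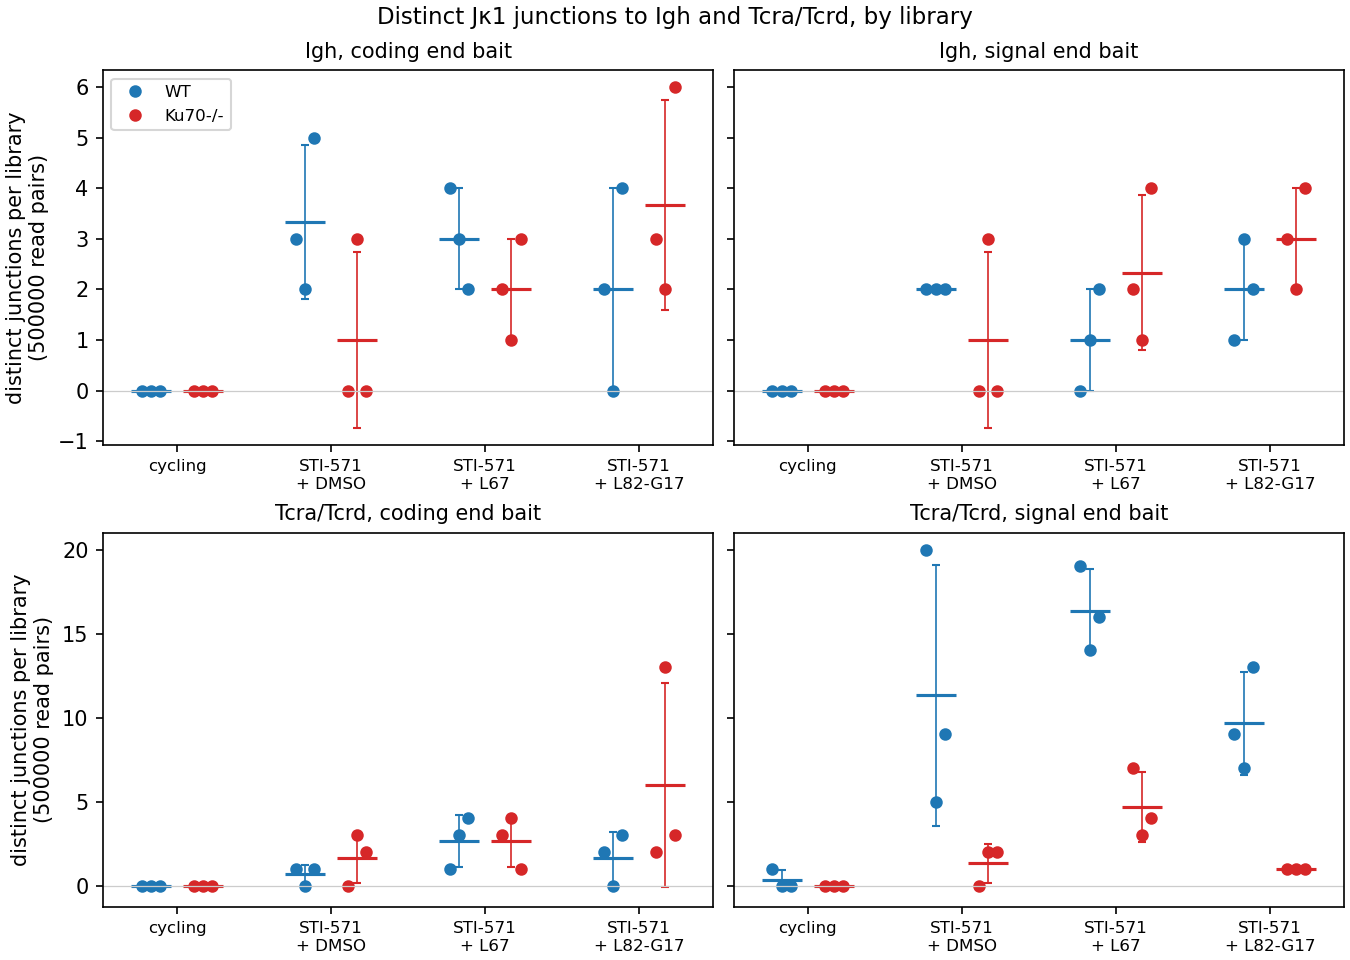
Distinct junctions per library in Igh (top) and Tcra/Tcrd (bottom) for the coding end bait (left) and the signal end bait (right), by treatment; points are libraries, lines are group means and bars are SD (n = 3). From the signal end bait, arrested WT libraries hold 5 to 20 distinct Tcra/Tcrd junctions and Ku70-/- libraries 0 to 7.

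Over the 3 loci together, the mean from Jκ1SE was 14.1 ± 4.96 in WT and 4.44 ± 2.79 in Ku70-/- (n = 9 each), a difference of -9.67 (exact permutation p = 0.00025, adjusted p = 0.003). With copies kept it was -114 junctions (exact permutation p = 0.00025). Without the low-complexity library these were -9.28 (exact permutation p = 0.0005) and -111 (exact permutation p = 0.00425). From Jκ1CE the means were 4.44 ± 2.24 and 5.78 ± 4.41, a difference of 1.33 (exact permutation p = 0.477, adjusted p = 0.667). Leaving out the low-complexity library gave 1.78 (exact permutation p = 0.303), and leaving out each library in turn gave 0.5 (without Ku70-/- L82-G17 replicate 2) to 2.17 (without Ku70-/- L82-G17 replicate 1), none past the threshold. Its direction turned with DMSO libraries only (-1.33) and as a mean share of junctions outside chromosome 6 (3.09% in WT, 1.86% in Ku70-/-). As a percent of all junctions it kept its direction and passed the threshold (exact permutation p = 0.009). With copies kept, the coding end difference was 28.1 junctions (exact permutation p = 0.0883) and its call depended on the setting. It was 14.5 to 35.5 leaving out 1 library, 32.5 without the low-complexity library (exact permutation p = 0.0308) 0.0279 as a percent of all junctions (exact permutation p = 0.00525) and -4.85 as a percent of the junctions outside chromosome 6 (exact permutation p = 0.0283). For Tcra/Tcrd, the genotype difference from Jκ1SE lay -11.9 distinct junctions from that from Jκ1CE (exact permutation p = 3.39e-05, adjusted p = 0.000102 over 3 tests), and -11.9 without the low-complexity library (exact permutation p = 7.02e-05). Both tests treated libraries of the baits as separate samples, which the labels do not establish.

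Cycling libraries were nearly empty. The 3 loci held 1 distinct junction in 1 of 3 WT cycling libraries with each bait and 0 in all 6 Ku70-/- cycling libraries. The signal end junction of cycling WT cells lay at Trav15-1-dv6-1 and was 1 read of a joint that had 44 copies in WT L67 Jκ1SE replicate 1. Whether it passed between libraries was not tested. Arrested WT libraries exceeded cycling ones by 13.8 distinct junctions from Jκ1SE (exact permutation p = 0.00455, the smallest possible; adjusted p = 0.0364) and by 4.11 from Jκ1CE (exact permutation p = 0.0182, adjusted p = 0.109). In Ku70-/- cells the differences were 4.44 from Jκ1SE (exact permutation p = 0.0409, adjusted p = 0.196) and 5.78 from Jκ1CE (exact permutation p = 0.0591, adjusted p = 0.258). Without the low-complexity library these became 5.0 (exact permutation p = 0.0182) and 6.5 (exact permutation p = 0.0364). Cycling libraries also held fewer junctions in all, and as a percent of all junctions the WT coding end difference was gone (1.46e-05 percentage points, exact permutation p = 0.995).

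The ligase inhibitors were given at different doses, so L67 and L82-G17 were each set only against DMSO. With 3 libraries against 3, the exact permutation test cannot go below p = 0.1. In Ku70-/- cells the 3 loci held 4.67 ± 0.577 distinct junctions from Jκ1CE with L67 and 10.0 ± 5.0 with L82-G17, against 2.67 ± 3.06 with DMSO. The exact permutation p was 0.4 for L67 and 0.2 for L82-G17. From Jκ1SE the means were 7.0 ± 2.65, 4.0 ± 1.0 and 2.33 ± 2.52 in the same order, with exact permutation p of 0.2 and 0.5. Without the low-complexity library the DMSO group rests on 2 libraries, and the 4 differences were 0.667, 6.0, 3.5 and 0.5 distinct junctions, none past the threshold.

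Tcra/Tcrd took a large share of what WT signal ends joined outside chromosome 6. Pooled over 9 libraries, 28.4% of 395 distinct junctions lay there, with a range of 10.6 to 42.6% among libraries. The corresponding shares were 1.16% of 1298 for WT Jκ1CE, 1.15% of 2689 for Ku70-/- Jκ1CE and 1.18% of 1775 for Ku70-/- Jκ1SE, the last 2 becoming 1.19% and 1.20% without the low-complexity library. Without L82-G17 replicate 2 the Ku70-/- Jκ1CE share was 0.747%. Per megabase, the Tcra/Tcrd window of WT Jκ1SE libraries held 532 times the distinct junctions of the other chromosomes outside antigen receptor windows. That ratio was 15.1 for WT Jκ1CE, 19.1 for Ku70-/- Jκ1CE and 18.9 for Ku70-/- Jκ1SE (19.7 and 19.3 without the low-complexity library), and 12.4 for Ku70-/- Jκ1CE without L82-G17 replicate 2. For Igh it was 12.6, 35.6, 6.18 and 8.57 for WT Jκ1CE, WT Jκ1SE, Ku70-/- Jκ1CE and Ku70-/- Jκ1SE. As observed over expected counts with 0.5 added to both, the mean log2 ratio was above 0 in all 8 cases of Igh and Tcra/Tcrd and ranged from 1.27 to 4.51. Over 9 libraries each, the exact sign-flip permutation p ran from 0.00391 to 0.0234 and the adjusted p over the 8 tests up to 0.0234.

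Igl, the λ light chain locus, is the other antigen receptor locus outside chromosome 6. It held more distinct junctions in Ku70-/- than in WT cells with both baits. Of the distinct counts above, only Tcra/Tcrd and the sum over the 3 loci, both from Jκ1SE, passed the threshold in the other direction. From Jκ1SE, arrested WT libraries held 0 to 1 distinct Igl junctions and Ku70-/- libraries 2 to 77. From Jκ1CE the ranges were 0 to 4 and 12 to 124. Both Ku70-/- minima came from the low-complexity library, without which they were 7 and 36. Of the distinct junctions in the 4 windows, the 3 loci held 96.7 ± 3.42% in WT and 12.1 ± 8.98% in Ku70-/- from Jκ1SE (exact permutation p = 0.00025, adjusted p = 0.0005). From Jκ1CE they held 62.2 ± 29.6% and 8.89 ± 8.66% (exact permutation p = 0.001, adjusted p = 0.001; n = 9 each). With that bait, mean distinct junctions in WT and Ku70-/- were 4.44 and 5.78 in the 3 loci and 2.22 and 65.2 in Igl. The lower Ku70-/- share there thus restates the Igl counts and shows no loss in the 3 loci. Without the low-complexity library the Ku70-/- shares were 13.6 ± 8.28% (exact permutation p = 0.00025) and 10.0 ± 8.55% (exact permutation p = 0.0015).

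Tcrg held 2 distinct junctions in 3 copies. One, at position 19224585, came from a cycling WT Jκ1CE library, and the other, at 19454911, from a Ku70-/- L82-G17 Jκ1CE library. Neither lay within 200 bp of any of the 11 Tcrg signal sequences found. The arrested libraries of a genotype and bait held 0 or 1 junction there in all. Its mean log2 density ratio, with 0.5 added to both counts, lay below 0 for each genotype and bait, from -0.166 to -0.0333. A library with 0 junctions falls below 0 here by construction, so this sign shows no depletion. Without the added 0.5, the pooled ratio was 1.24 for Ku70-/- Jκ1CE, from 1 junction, and 0 for the others. A test of the Tcrg ratio was planned but left out because under 1 junction was expected per library. That also held for the windows that were tested (at most 0.513 expected).

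Junctions fell at few signal sequences. In Tcra/Tcrd, 160 of 180 distinct junctions (88.9%) lay within 200 bp of an annotated segment's RSS border, at 18 of 170 borders searched. In Igh, 57 of 79 (72.2%) did, at 17 of 154 borders in 16 segments. Within 10 bp of a border lay 125 and 42. At least 5 distinct junctions were held by 6 Tcra/Tcrd sites and 3 Igh sites, and no group of junctions away from the borders searched held 5.

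Trav15-1-dv6-1 (Gm16591, ENSMUSG00000076841.2), an αδ V segment with its last coding base at 54179922, was the most frequent site, with 61 distinct junctions and 664 copies in 28 libraries. It was the one leading Tcra/Tcrd site joined in quantity by both genotypes. In arrested WT cells it held 17 distinct junctions from Jκ1SE in 8 of 9 libraries (median 2, highest 5) and 8 from Jκ1CE in 5 of 9 (median 1, highest 3). In arrested Ku70-/- cells it held 15 from Jκ1SE in 6 of 9 libraries (median 1, highest 6) and 20 from Jκ1CE in 8 of 9 (median 2, highest 5). The segments next to it showed another pattern.

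Trav13-1 (Gm16980), 14722 bases upstream, held 27 distinct junctions in 240 copies, 26 of them from arrested WT Jκ1SE libraries. Those libraries held 7, 2 and 2 with DMSO, 1, 1 and 8 with L67, and 2, 0 and 3 with L82-G17. Trav14-1 (Gm5770), between them, held 17 distinct junctions in 268 copies, all from WT Jκ1SE, with 3, 0 and 1, then 2, 1 and 3, then 3, 3 and 1. Neither segment was joined in any of the 18 arrested Ku70-/- libraries. In a library, 0 distinct junctions allows up to 3. Whether single sites differ between genotypes was not tested.

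Trav13-2, an α V segment in a second, related group of segments, held 21 distinct junctions, and 16 of them came from WT Jκ1SE libraries, with at least 1 in each of the 9. All 4 of its Ku70-/- Jκ1CE junctions came from 1 library, L82-G17 replicate 2, the library with 13 Tcra/Tcrd junctions. Tcra-V2.6 held 6, in 2 WT Jκ1SE libraries, and Trav15-2-dv6-2 held 5, of which 3 came from WT Jκ1SE. The other 12 Tcra/Tcrd borders held 1 to 4 each. They included Trdd1, a δ D segment, with 2, and Traj50, an α J segment, with 1. Thus 157 of the 160 junctions at borders lay at V segments. This is a count only, since it was not set against the V share of the borders searched.

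**Figure D2:**
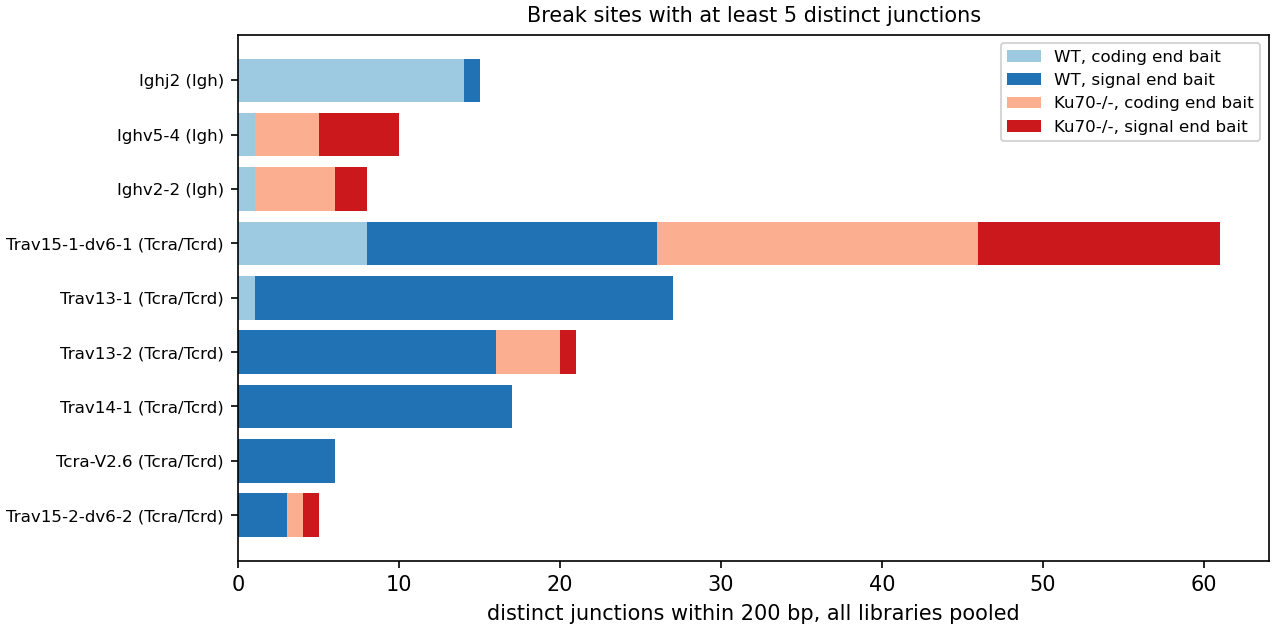
Distinct junctions within 200 bp of each break site that held at least 5, pooled over all 48 libraries and split by genotype and bait. Trav15-1-dv6-1 holds 61, drawn from both genotypes and baits, while Trav13-1 (27) and Trav14-1 (17) come almost wholly from the WT signal end bait.

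Trav segments occur in near-identical copies, which limits how surely a junction names its segment. Over 150 bases on the coding side, Trav15-1-dv6-1 differed from Trav15d-1-dv6d-1 at 9 bases, Trav14-1 from Gm13980 at 5 and Trav13-2 from Trav13d-2 at 5. Trav15-2-dv6-2 differed from its closest copy at 2 bases on the coding side and 0 on the signal side. Prey alignments of distinct Tcra/Tcrd junctions had a median of 128 bases. Median identity of WT prey bases with mm9 was 100% at Trav15-1-dv6-1 and Trav14-1, 99.1% at Trav13-1, 99.4% at Trav13-2 and 98.1% at Tcra-V2.6. At Trav15-2-dv6-2 it was 96.9%, so the assignment of its junctions is the least certain.

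WT signal ends joined Tcra/Tcrd coding ends. Of the 103 distinct junctions at borders from arrested WT Jκ1SE libraries, 102 were to coding ends and 1 to a signal end, so 99.0% were hybrid joints (95% Clopper-Pearson interval 94.7 to 100%). All 26 at Trav13-1, 17 at Trav14-1 and 16 at Trav13-2 were to coding ends, as were 16 of 17 at Trav15-1-dv6-1. Ku70-/- Jκ1SE libraries had the reverse, with 15 signal ends and 2 coding ends, and 14 of 15 at Trav15-1-dv6-1 were signal ends. The library share of signal end preys was 0.926 ± 2.78% in WT (n = 9, 0 to 8.33%) and 85.4 ± 35.0% in Ku70-/- (n = 8, 0 to 100%). The difference within treatment was 86.1 percentage points (exact permutation p = 0.001, adjusted p = 0.012 over 12 tests that were chosen after the values were seen). The low-complexity library has no such junction and does not enter. In Ku70-/- cells, DMSO replicates 2 and 3 and each L82-G17 library held only 1 such junction, so their share could only be 0 or 100%.

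The same WT libraries joined Vκ differently. At annotated Vκ segments, 85.6 ± 2.52% of their distinct Jκ1SE junctions were to signal ends (81.7 to 89.1%). Copies were merged here too, so a frequent Vκ joint counts once. The Tcra/Tcrd share lay below the Vκ share in 9 of 9 libraries, with a mean difference of -84.7 percentage points (exact sign-flip permutation p = 0.00391, adjusted p = 0.0234). In Ku70-/- Jκ1SE libraries the Vκ share of signal ends was 54.6 ± 6.58%, and the Tcra/Tcrd share exceeded it in 7 of 8 (exact sign-flip permutation p = 0.0703, adjusted p = 0.141).

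From the coding end bait, WT cells joined 8 signal ends and 4 coding ends of Tcra/Tcrd, and all 8 at Trav15-1-dv6-1 were signal ends. Thus hybrid joints made up 66.7% of 12 (95% interval 34.9 to 90.1%), against 1.34% of the distinct Vκ junctions of these libraries. That Vκ share counts a frequent joint once, and the study, which kept duplicates, gives a lower share of hybrids among WT coding end Vκ joints. The library share of signal ends exceeded that of Vκ in 5 of 6 libraries (exact sign-flip permutation p = 0.0625, adjusted p = 0.141). Ku70-/- Jκ1CE libraries joined 12 signal and 15 coding ends. That share, 44.4% of 27 (95% interval 25.5 to 64.7%), differed from the Vκ share by 9.27 percentage points on average (exact sign-flip permutation p = 0.539, adjusted p = 0.614).

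In Igh, WT coding ends joined 19 coding and 4 signal ends, and Ku70-/- coding ends 8 and 6. WT signal ends joined 8 coding and 3 signal ends, and Ku70-/- signal ends 4 and 5. None of the Igh shares differed between genotypes after adjustment (adjusted p = 0.117 from Jκ1CE and 0.833 from Jκ1SE, both by exact permutation). Over the 3 loci, Ku70-/- signal end preys made up 30.7 percentage points more than 50% from Jκ1SE (exact sign-flip permutation p = 0.0156, adjusted p = 0.156 over 10 tests) and 8.1 points less from Jκ1CE (exact sign-flip permutation p = 0.453).

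**Figure D3:**
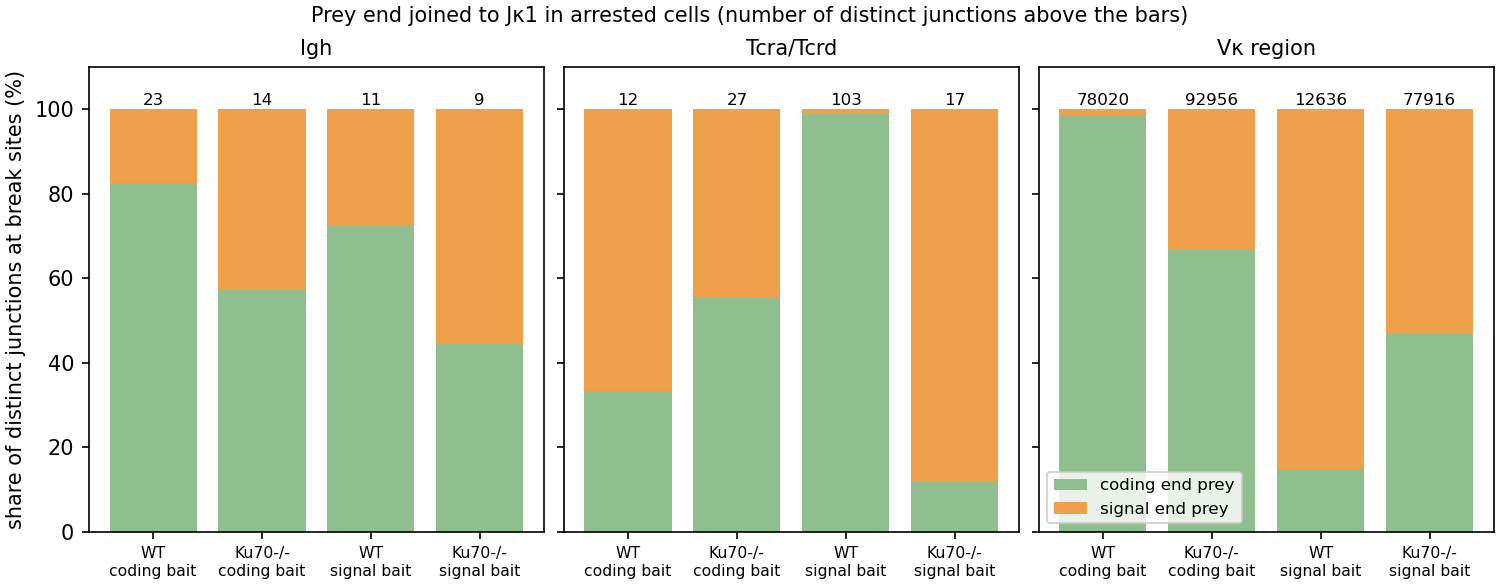
Share of coding end and signal end preys among distinct junctions at break sites in arrested cells, for Igh, Tcra/Tcrd and the Vκ region, pooled over 9 libraries a bar, with the number of junctions above it. WT signal end baits join 102 coding ends and 1 signal end in Tcra/Tcrd, while 85.1% of their distinct Vκ preys are signal ends.

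A few Tcra/Tcrd joints are shown as read, from 25 bait bases to 25 prey bases, to show the ends used. Bases shared by bait and prey are in capitals, and each had the most copies of any joint of its kind at its site.
WT Jκ1SE to the Trav14-1 coding end: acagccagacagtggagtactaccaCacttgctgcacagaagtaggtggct
WT Jκ1SE to the Trav15-1-dv6-1 coding end: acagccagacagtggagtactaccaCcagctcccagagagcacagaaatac
WT Jκ1CE to the Trav15-1-dv6-1 signal end: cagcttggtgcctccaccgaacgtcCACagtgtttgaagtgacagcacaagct
Ku70-/- Jκ1SE to the Trav15-1-dv6-1 signal end: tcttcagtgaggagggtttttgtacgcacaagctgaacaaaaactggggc
In both WT signal end joints, the prey kept its last coding base (54174233 and 54179922 on the minus strand) and the bait lost 4 bases of its heptamer. They had 122 and 59 copies in their library. The WT coding end joint kept all of Jκ1 and ran into the Trav15-1-dv6-1 heptamer with an overlap of 3 bases. In the Ku70-/- joint, which had 125 copies, the bait lost 28 bases and the prey 19, so both heptamers were gone.

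WT ends were trimmed little and Ku70-/- ends more. At Tcra/Tcrd borders in arrested WT Jκ1SE libraries, the median loss was 4 bases from the bait (0 to 14) and 2 from the coding end prey (-7 to 89, where a negative value means that the prey read kept bases past the border, only some of which were also shared with the bait). In Ku70-/- Jκ1SE libraries, the median loss was 16 bases from the bait (-2 to 41) and 13 from the signal end prey (-2 to 58). The mean of library medians for the bait was 3.39 ± 1.32 bases in WT (n = 9) and 17.9 ± 9.51 in Ku70-/- (n = 8; exact permutation p = 0.001, adjusted p = 0.004 over 8 tests chosen after the values were seen). For the prey it was 1.33 ± 1.66 and 23.7 ± 35.7 bases (exact permutation p = 0.00025, adjusted p = 0.002). These preys were 102 coding ends and 1 signal end in WT, but 2 coding ends and 15 signal ends in Ku70-/-. In both the bait and the prey test from Jκ1SE, genotype therefore cannot be told apart from the kind of prey end. The Ku70-/- libraries with DMSO or L82-G17 that enter held 1 junction at a border each, so their medians are single values. The Ku70-/- prey mean rested on L82-G17 replicate 1, whose 1 junction at a border, at Trav15-2-dv6-2, lost 111 bases. Without it the mean was 11.2 ± 6.04 bases (n = 7; exact permutation p = 0.0005), and the call was lost without any 1 of the 3 WT L82-G17 libraries (exact permutation p = 0.0625, 0.056 and 0.0625).

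From Jκ1CE the bait loss at Tcra/Tcrd was 2.17 ± 1.37 bases in WT (n = 6) and 14.9 ± 8.39 in Ku70-/- (n = 8; exact permutation p = 0.005, adjusted p = 0.01). The prey loss was 1.0 ± 1.38 and 32.0 ± 34.2 bases (exact permutation p = 0.03, adjusted p = 0.048). Without Ku70-/- L82-G17 replicate 1, whose median was 106 bases, the Ku70-/- mean was 21.4 ± 17.9 (n = 7; exact permutation p = 0.0167). The call was lost without WT L67 replicate 2 or 3 (exact permutation p = 0.0833 for both) or WT L82-G17 replicate 1 (p = 0.15) or 3 (p = 0.167). Calls on the bait losses at Tcra/Tcrd stayed past the threshold, unadjusted, when each library was left out in turn, a check added after the data were seen. At Igh borders the coding end bait lost 1.88 ± 1.03 bases in WT (n = 8) and 19.3 ± 6.61 in Ku70-/- (n = 5; exact permutation p = 0.00417, adjusted p = 0.01), and this also stayed past the threshold without each library. The Igh prey loss from Jκ1CE did not pass after adjustment (adjusted p = 0.0556), nor did either loss from Jκ1SE (both adjusted p = 0.292, exact permutation). In WT it includes the Ighj2 joints described below, which all count as 10 bases lost. Leaving out Ighj2 joints and joints that hold D bases, the median prey loss from Jκ1CE was 1 base in WT and 20 in Ku70-/-. From Jκ1SE it was 0.5 and 17. These medians over junctions, chosen after the data were seen, were not tested.

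**Figure D4:**
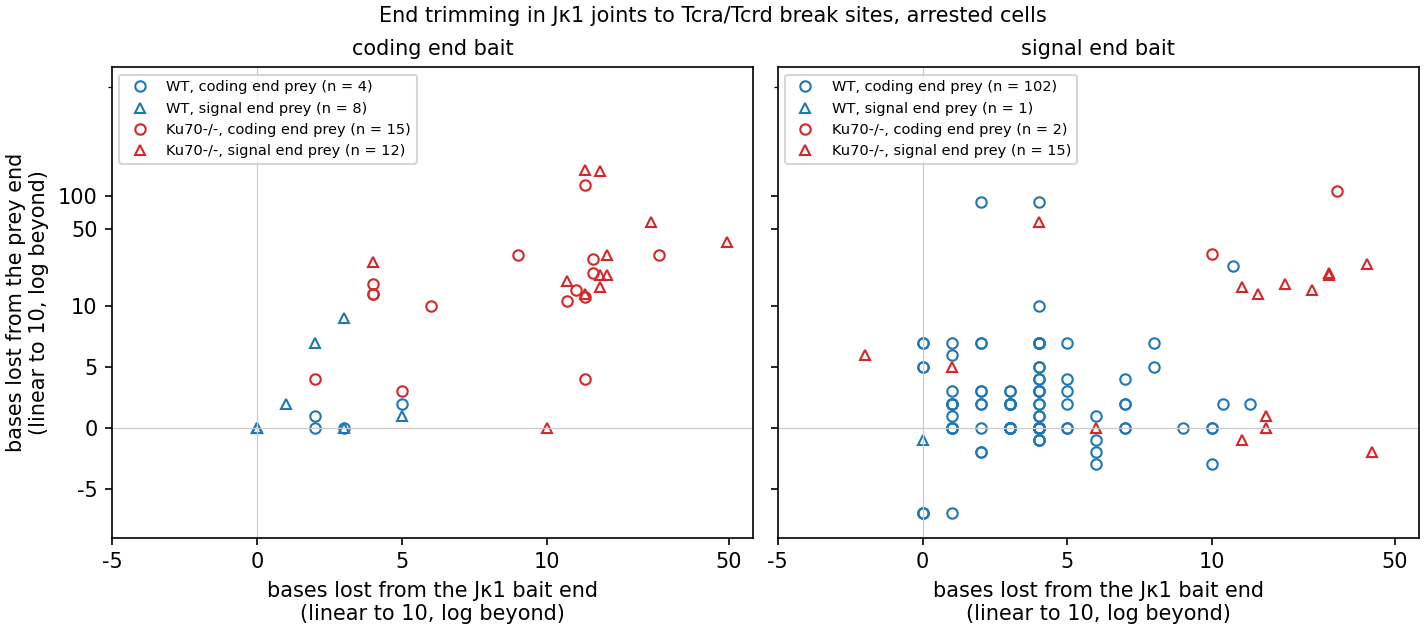
Bases lost from the Jκ1 bait end (horizontal) and from the prey end (vertical), both linear to 10 and logarithmic beyond, for each distinct junction at a Tcra/Tcrd break site in arrested cells; circles are coding end preys and triangles signal end preys. WT points crowd near the origin, with a median bait loss of 4 bases for the 102 signal end bait joints to coding ends, while the 15 Ku70-/- signal end joints have a median of 16.

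The hybrid joints of WT signal ends could be set against those that the same libraries made with Vκ coding ends, 102 against 1883 distinct junctions. Insertions made up 35.2 ± 19.3% at Tcra/Tcrd and 23.2 ± 4.15% at Vκ, and microhomology of at least 2 bp 17.9 ± 13.1% and 28.4 ± 6.26% (n = 9; exact sign-flip permutation p = 0.0742 for both). Prey ends within 10 bp of the break made up 96.2 ± 9.47% and 95.7 ± 1.26%. The whole signal end bait was kept in 9.88 ± 19.4% and 36.9 ± 7.51% (exact sign-flip permutation p = 0.0195, adjusted p = 0.109 over 7 tests chosen after the values were seen). No measure passed after adjustment.

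Joint structure was classed as insertion, direct or microhomology, with gaps and overlaps up to 20 bp. In Ku70-/- cells the 3 loci held 6 insertions among 52 classified joints from Jκ1CE (11.5%) and 8 among 40 from Jκ1SE (20.0%). Among distinct Vκ junctions, where a frequent joint also counts once, the shares were 12.9% and 13.2%. Within libraries, insertions differed from Vκ by -0.0636 and 8.78 percentage points, and microhomology of at least 2 bp by 4.86 and 2.98 (n = 8; exact sign-flip permutation p from 0.266 to 0.984). Direct joints differed by -1.36 points from Jκ1CE (exact sign-flip permutation p = 0.859) and -14.9 from Jκ1SE (exact sign-flip permutation p = 0.0313, adjusted p = 0.156 over 10 tests). Between genotypes, the insertion share of the 3 loci differed by -33.5 points from Jκ1CE (exact permutation p = 0.075, n = 8 each, with 1 library of each genotype holding no junction). From Jκ1SE it differed by -14.5 points (exact permutation p = 0.219, with 8 Ku70-/- and 9 WT libraries).

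**Figure D5:**
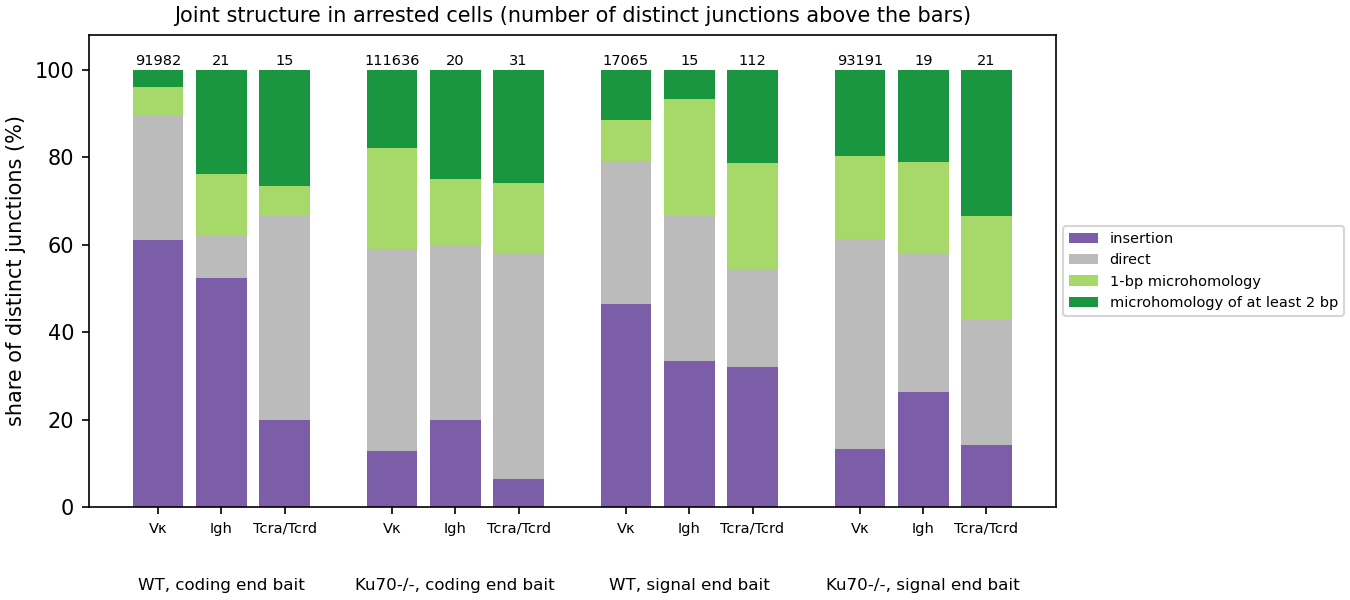
Joint structure of distinct junctions in arrested cells for Vκ, Igh and Tcra/Tcrd, pooled over 9 libraries a bar, by genotype and bait, with the number of classified junctions above. In WT coding end libraries, insertions make up 61.1% of distinct Vκ joints and 52.4% of distinct Igh joints. Of the 11 Igh insertions, 10 lie at Ighj2. The Vκ share counts a frequent joint once, and the study, which kept duplicates, describes WT coding end V-J joints as mostly direct.

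Ighj2 held the most Igh junctions. All 15 distinct junctions there, 87 copies in 7 libraries, were in WT cells, 14 of them from Jκ1CE. All ended at the same prey base, 114667716. It lies 10 bases to the coding side of the border used here and outside the annotated Ighj2 interval. In the arrested WT Jκ1CE libraries they numbered 3, 1 and 2 with DMSO, 3, 3 and 0 with L67, and 0, 0 and 2 with L82-G17. Between bait and prey stood 10 to 22 further bases, and all 15 of these stretches ended in the same 8 bases, TAGTAGGG. In 14 of the 15, at least 8 bases in a row of these matched Ighd1-1 (Gm16947), a D segment at 114720381 to 114720403. The joint with the most copies and the D segment are shown for comparison, with the bases between bait and Ighj2 in capitals and then the matching bases of the D segment in capitals.
WT Jκ1CE to Ighj2: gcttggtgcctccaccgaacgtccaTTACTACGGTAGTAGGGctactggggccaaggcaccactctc
Ighd1-1, chr12:114720381-114720403, minus strand: tttaTTACTACGGTAGTAGctac
Of the 17 bases, 15 matched. The read thus ran from Jκ1 through Ighd1-1 bases into Ighj2.

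Ighd1-1 was also joined on its 5′ signal side, at 114720404 in 3 WT libraries, and in 2 of them from Jκ1SE as a direct joint of whole signal ends. On its 3′ signal side, at 114720380, it held 1 direct joint of whole signal ends, with 7 copies in WT L82-G17 Jκ1SE replicate 2. These 4 junctions, below the number set for naming a site, were chosen after their values were seen. The 5′ side joint is shown because both heptamers meet in it, and it has no capitals since no base was shared or inserted.
WT Jκ1SE to the Ighd1-1 signal end: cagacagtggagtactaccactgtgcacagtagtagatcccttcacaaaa

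Ku70-/- cells joined another J segment. At Ighj4, 2 Ku70-/- Jκ1CE junctions ended at 114666776 with 11 and 14 further bases, of which 10 and 12 in a row matched Ighd3-1 (Gm16967), at 114763524 to 114763540. Another Ku70-/- junction at Ighj4, from Jκ1SE, lost 130 bases of the segment and held no D bases. Ighj2 held 0 junctions in the 18 arrested Ku70-/- libraries.
Ku70-/- Jκ1CE to Ighj4: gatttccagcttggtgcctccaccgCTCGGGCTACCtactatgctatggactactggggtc
Ighd3-1, chr12:114763524-114763540, minus strand: ggcacagCTCGGGCTAC
Both WT junctions at Ighj3, 1 to its coding end and 1 to its signal end at 114667342, also held no D bases. The D bases next to Ighj2 in the WT line and next to Ighj4 in the Ku70-/- line thus came from different D segments. Whether D and J bases were already joined in each line before the Jκ1 break was not tested, and the coding end calls and the 10 bases lost at Ighj2 rest on the border in mm9. Leaving out all Ighj2 joints and all joints that hold D bases, a choice made after the data were seen, WT coding ends joined 5 coding and 4 signal ends of Igh and Ku70-/- coding ends 6 and 6. Insertions then made up 1 of 11 and 2 of 18 classified Igh joints. Without the joints that hold D bases, a choice made after the data were seen, the insertion share differed between genotypes by -26.5 points from Jκ1CE (exact permutation p = 0.187).

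The leading Igh sites of Ku70-/- cells were V segments. Ighv5-4 (Gm16971), with its last coding base at 114835657, held 10 distinct junctions, 9 in Ku70-/- cells, and all 9 were signal ends. They came from 3 Jκ1CE and 2 Jκ1SE libraries, and their baits lost 7 to 38 bases. Ighv2-2 (Gm16970), at 114826478, held 8, of which 7 were in Ku70-/- cells, and all were coding ends. Each V segment had close copies, since Ighv5-4 differed from Ighv5-6 at 9 of 150 coding side bases and Ighv2-2 from Ighv2-4 at 5. Ighv8-12 held 3, and the other 11 borders held 1 or 2 each.

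Most distinct junctions were read more than once. The median number of copies was 4 in Igh (1 to 54) and 4 in Tcra/Tcrd (1 to 152), and 15 of 79 and 49 of 180 were single reads. Igl was alike, with a median of 5 and 201 of 949 single (21.2%). Elsewhere outside chromosome 6 and Igl the median was 1 and 53.8% were single. The largest junction held 7.91% of the Tcra/Tcrd copies. Some joints recurred, and of 158 kinds of joint in Tcra/Tcrd, 15 were found in more than 1 library with the same bait, at most 4. The 2 most widespread were the Trav15-1-dv6-1 joint shown above, in 4 WT libraries with 1 to 59 copies, and a Trav14-1 joint with an overlap of 4 bases, in 4 WT libraries with 3 to 50 copies. Of the 180 distinct Tcra/Tcrd junctions, 21 had fewer copies than the same joint in another library, and in Igh 5 of 79. Whether these arose separately or passed between libraries was not tested.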

How the data were processed

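Per the labels and the study's methods, genomic DNA was amplified from the Jκ1 bait, and the authors reduced each library to 500000 read pairs, mapped them to mm9 (Bowtie2 in the submitters' processing notes, version not given) and kept duplicates. The deposited lists give positions, strands and read coordinates, a mix of units (other) rather than counts. All 48 libraries were grouped by their labels, and none was left out. Replicate numbers follow accession order and pair nothing. The labels do not say whether libraries of a group came from separate cultures, so the p-values measure only the spread between these libraries, which may be technical. The members, sites and tests were chosen with earlier results of these data known.

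Distinct junctions, overlap (microhomology) and gap (insertion) were computed from the lists. Break sites came from 319 GENCODE vM1 V, D and J segments on NCBIM37, another name of the mm9 build (149517037 bases for chromosome 6), 312 of which have a RefSeq symbol. Segments annotated as pseudogenes were not searched. Near each segment's edge (within 20 bases, 60 for J), the CAC heptamer with the best heptamer and nonamer was taken. A junction went to the nearest site within 200 bp. Preys reading into the RSS were signal ends, and the others coding ends. Sites were named where they held at least 5 distinct junctions. Vκ junctions were handled in the same way. In WT STI-571 + DMSO Jκ1CE replicate 1, merging copies took 362358 Vκ junctions to 12166 distinct ones. A share of distinct Vκ junctions thus counts a frequent joint once and is not a share of all Vκ junctions. D bases were runs of at least 8 shared with an annotated Ighd segment. Igl was chr16:19000001-20000000.

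Comparisons between libraries used exact permutation tests, all two-sided, written in Python 3.11.15 with numpy 2.4.6, scipy 1.17.1, pandas 2.3.3 and pysam 0.24.0. Genotype or bait labels were permuted within treatment (8000 arrangements with all libraries), and differences within a library were tested by sign flips. Benjamini-Hochberg adjustment was made within each family. Site assignment and tests were tested on simulated data. Alternatives changed the counting, the denominator, the libraries and the distance to a site.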

Additional observations from a re-analysis of the deposited data

Results flagged for a closer look

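The effect of genotype on distinct junctions differed between the baits. Over the 3 loci, the difference Ku70-/- minus WT was 1.33 distinct junctions from Jκ1CE and -9.67 from Jκ1SE, so that the differences lay -11.0 apart (exact permutation of genotype within treatment and bait, p = 0.000318, adjusted p = 0.000477 over 3 tests). Without Ku70-/- STI-571 + DMSO replicate 1 they lay -11.1 apart (exact permutation p = 0.000366). For Tcra/Tcrd alone they were 1.78 and -10.1, which lay -11.9 apart (exact permutation p = 3.39e-05, adjusted p = 0.000102). For Igh the differences lay 1.0 apart (exact permutation p = 0.382). These tests treated libraries of the baits as separate samples. The labels do not say whether they share DNA, and if they do, these p-values are too small.

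Single arrested libraries stood apart from the other 8 of their genotype and bait, counted over all 3 treatments. A Ku70-/- Jκ1CE library with L82-G17 held 13 distinct Tcra/Tcrd junctions, against 4 in the next, and another held 6 distinct Igh junctions, against 3 in the next. Of 8 such sets examined, both of these passed Dixon's 95% critical value, which for normal values about 1 set in 20 passes by chance. That rate was not tested for small counts pooled over treatments. The 13 junctions had 153 copies.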

How the results depend on the processing

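Of 503 alternative values, 446 kept their direction and their side of the threshold, 28 lost the call, 15 gained one and 14 changed sign. The WT excess of distinct signal end junctions kept its sign in all alternatives, but with DMSO libraries only it was -11.0 (-130 with copies) and could not pass with 3 libraries against 3. The WT signal end excess of arrested over cycling cells was 13 there. The cause of the changes below was not tested.

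For Ku70-/- minus WT from Jκ1CE, distinct junctions differed by -1.23 as a percent of those outside chromosome 6, by 0.00255 as a percent of all junctions (exact permutation p = 0.009) and by -1.33 with DMSO only. With copies, the first 2 were -4.85 (exact permutation p = 0.0283) and 0.0279 (exact permutation p = 0.00525), and leaving out 1 library gave 14.5 to 35.5 junctions, past the threshold at 32.5 without DMSO replicate 1 and at 32.2 without L67 replicate 1 of Ku70-/-. For arrested minus cycling WT cells from Jκ1CE, the values were 1.98 and 1.46e-05 in these percents and 3.67 with DMSO only. The cycling side of these values rests on 1 read in Tcrg. Leaving out 1 library gave 3.79 to 4.67, and the call was lost without any 1 of the 3 cycling libraries (4.44, 3.94 and 3.94).

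For arrested minus cycling Ku70-/- cells from Jκ1CE, the call was gained at 5.67 with positions merged, 5.33 with joints within 3 bp merged (chosen after the data were seen), 2.44 as log2(count + 1) and 4.56 within 200 bp of a site. Leaving out 1 library gave 4.62 to 6.50, with the call gained without DMSO replicate 1 (6.50) or L82-G17 replicate 2 (4.62). From Jκ1SE it was lost at 49.8 with copies, 3.22 with at least 2 copies, 3.78 with joints within 3 bp merged, 2.89 within 200 bp and 2.33 with DMSO only. Leaving out 1 library gave 3.88 to 5.00, and the call was lost without L67 replicate 1 (3.88) or 3 (4) or any cycling library (4.44). Signal end minus coding end bait in Ku70-/- cells was 0.16 as a percent outside chromosome 6.

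For joint structure, the insertion difference from Vκ for Ku70-/- Jκ1CE was 5.65 percentage points with copies and -4.21 to 1.86 without 1 library. The direct joint difference was 2.23 within 200 bp and -6.26 to 2.54 without 1 library. From Jκ1SE the direct joint difference was -16.1 with copies, -22.6 within 200 bp and -17.3 to -11.9 without 1 library. Its call was lost without DMSO replicate 2 (-15.7), L67 replicate 1 (-14.8) or 3 (-11.9), or any L82-G17 library (-13.9, -15.3 and -13.0). The insertion difference between genotypes from Jκ1CE was -39.3 with copies and -38.8 within 200 bp, both past the threshold, and -42.4 to -27.9 without 1 library, past the threshold without WT L67 replicate 3 (-41.2) or WT L82-G17 replicate 1 (-38.2). From Jκ1SE the call was gained with copies (-21.2, exact permutation p = 0.0462). The Igh density of Ku70-/- Jκ1SE was 1.50 (log2) with copies and lost its call. No paired analysis was possible between libraries because the labels give no replicate numbers. Groups of 3 libraries and counts of 0 to 20 per library limit what differences could be seen.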

Other observations

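One group of Tcra/Tcrd junctions lay at none of the segments searched, which did not include annotated pseudogenes. It held 4 distinct junctions from 3 WT Jκ1SE libraries, within 10 bp of a heptamer at 54165900 on chromosome 14, which lies 699 bases past the Trav13-1 break. All 4 prey reads ran on the plus strand, over the heptamer or from the base after it, the direction called a signal end at annotated borders, and they are not among the 102 coding end and 1 signal end preys counted there. The site is shown on mm9 with its heptamer in capitals.
Unannotated heptamer, chr14:54165880-54165938, plus strand: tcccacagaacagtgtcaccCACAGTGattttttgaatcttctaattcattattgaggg
The best nonamer position after it had 6 mismatches. The group was chosen after its values were seen.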
